A study of Mus musculus with 8 samples.

Results

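The 10 genes described here supply MHC class I peptide presentation and the immunoproteasome in peritoneal macrophages (pMacs) of WT and CD1d-KO mice. They were chosen by name as the classical class I heavy chains *H2-K1* and *H2-D1*, beta-2 microglobulin (*B2m*), the peptide transporter and its loading bridge (*Tap1*, *Tap2* and *Tapbp*), the inducible proteasome subunits *Psmb8*, *Psmb9* and *Psmb10*, and the transactivator *Nlrc5*. The rule uses gene names and no measured value, but the genes were chosen with earlier results of these data known. They are 10 of 48795 gene identifiers in the files and 10 of the 13040 genes with enough counts to be tested.

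The study asked how CD1d, a class I-like molecule that presents lipids, affects macrophages themselves. Unstimulated pMacs were collected by peritoneal lavage from 4 WT (C57BL/6) and 4 CD1d-KO mice, and their polyadenylated RNA was sequenced with 1 library for each mouse. Each genotype has the replicate numbers 1, 2, 3 and 5, so that the libraries form 4 pairs across the genotypes. The methods describe age- and sex-matched mice of 8 to 16 weeks, littermates as controls, and 2 kinds of CD1d-KO mice. These are CD1d flox x PGK Cre mice and the deletion strain B6.129S6-Del(3Cd1d2-Cd1d1)1Sbp/J. Which of them gave these libraries is not stated in the sources used here. PGK Cre acts in most cells of the body, so neither line restricts the loss of CD1d to macrophages. The study describes the pMacs of these libraries as purified, and the sources used here do not say how, since enrichment with F4/80 beads is stated for stimulation experiments.

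Class I molecules show peptides from the cell's own proteins to CD8 T cells. The proteasome cuts the proteins, the TAP transporter carries the peptides into the endoplasmic reticulum, and tapasin holds the empty heavy chain and beta-2 microglobulin beside TAP until a fitting peptide binds. In cells exposed to interferon, the catalytic subunits encoded by *Psmb8*, *Psmb9* and *Psmb10* take the places of the constitutive subunits encoded by *Psmb5*, *Psmb6* and *Psmb7*, and NLRC5 acts at the promoters of class I genes together with RFX, CREB/ATF and NF-Y proteins.

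The promoters of the class I chains are shown because NLRC5 is known to act through sites of this kind. RefSeq promoter windows on GRCm38.p6 were found for 8 of the 10 genes, all but *Tap2* and *Nlrc5*, and were searched on both strands for 5 short motifs. The sequences below are the 250 bases before the annotated start of *H2-K1* (chr17:34000348-34000597, minus strand) and the bases that precede that of *B2m* (chr2:122147437-122147685, plus strand). Capitals mark, in *H2-K1*, a kappa B element, the X2 box and the CCAAT box in that order, and in *B2m* an interferon-stimulated response element, the X2 box and the CCAAT box.
H2-K1: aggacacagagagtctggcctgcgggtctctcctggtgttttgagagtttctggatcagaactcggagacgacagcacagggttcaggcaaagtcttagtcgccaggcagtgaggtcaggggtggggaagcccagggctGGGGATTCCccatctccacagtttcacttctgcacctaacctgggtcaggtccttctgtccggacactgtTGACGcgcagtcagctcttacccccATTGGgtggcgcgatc
B2m: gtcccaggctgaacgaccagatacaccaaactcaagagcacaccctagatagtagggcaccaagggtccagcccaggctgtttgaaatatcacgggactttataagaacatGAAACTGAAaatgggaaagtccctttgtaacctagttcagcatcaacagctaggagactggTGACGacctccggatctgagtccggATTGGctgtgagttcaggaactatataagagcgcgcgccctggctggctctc
The X2 box TGACG was present in the windows of 5 of the 8 genes (*B2m*, *H2-D1*, *H2-K1*, *Psmb9* and *Tap1*) and in 20.8% of all 32851 windows. The CCAAT box, searched as ATTGG, was present in 6 of the 8 (the same 5 and *Tapbp*) and in 37.4% of all windows. The kappa B element GGGNNTTCC was found in *H2-D1* and *H2-K1* and in 5.82% of all windows, the interferon-stimulated response element GAAANNGAA in *B2m* and in 8.56%, and the gamma-activated site TTCNNNGAA in *Psmb8* and in 8.3%. Within the window of any one gene these matches do not overlap. *Psmb9* and *Tap1* share a promoter in which the windows overlap, and their X2 match is a single site on chromosome 17, as is their CCAAT match, so each counts for both genes above. A match of letters is a description and no evidence of binding, and the absence of one says only that these letters are not in the window. Only the spellings given here were searched, so other forms of an element stay unmarked in the sequences above.

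In the 3 genes of the class I molecule itself the X2 box and the CCAAT box stand at the same distance. The stretches of 30 bases that hold them are shown for *H2-K1* (chr17:34000359-34000388, minus strand), *H2-D1* (chr17:35262993-35263022, plus strand) and *B2m* (chr2:122147609-122147638, plus strand), with the boxes in capitals.
H2-K1: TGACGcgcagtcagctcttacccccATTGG
H2-D1: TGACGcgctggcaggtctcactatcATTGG
B2m: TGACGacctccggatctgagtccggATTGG
The first bases of the boxes are 25 bases apart in all 3, and the bases between them differ from gene to gene. The same order and distance occurred in 31 of the 32851 windows (0.0944%), which belong to 27 genes. Of these genes, 3 of the 32 named H2- in the table were *H2-K1*, *H2-D1* and *H2-M3*. The distance was chosen for description after the sequences had been seen.

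The deleted gene was checked first. *Cd1d1*, which encodes CD1d, had 67.6, 174, 95.3 and 140.03 normalized counts in WT replicates 1, 2, 3 and 5 and 1.13, 0 and 1.09 in CD1d-KO replicates 2, 3 and 5. The library labelled CD1d-KO replicate 1 had 60.1, close to the WT library of its pair, which goes against its label. The results below follow the labels, and the fold changes of the 10 genes and the counts of the lists described with them are also given without replicate 1. Normalized counts are expected counts scaled by the TMM factors of edgeR to the mean library size. Totals of 13875116 to 19059432 counts on genes in WT and 13698864 to 18631659 in CD1d-KO libraries stood behind them, and the 10 genes had between 252 (*Psmb9*) and 53265 (*H2-D1*) expected counts in a library. In both genotypes the largest total was that of replicate 1. All 10 markers of large peritoneal macrophages were measured, with a summed level of 3374 to 3992 TPM in WT and 3703 to 5170 TPM in CD1d-KO libraries. Those of B cells summed to 176 to 522 and 117 to 897 TPM, of T and NK cells to 2.62 to 3.69 and 1.53 to 3.16 TPM with *Ncr1* at 0 in every library, and of neutrophils to 11.0 to 14.7 and 18.2 to 24.2 TPM with *Ly6g* at 0. *S100a8*, which had 44.1 to 51.1 normalized counts in WT and 80.4 to 89.4 in CD1d-KO libraries (log2 fold change 0.83, adjusted p = 0.101 from edgeR), made up most of the neutrophil sum, and *S100a9* had at most 1.05. Markers of small peritoneal macrophages and dendritic cells summed to 40.9 to 72.7 and 36.2 to 85.0 TPM, of mast cells to 7.23 to 20.2 and 4.18 to 16.3 TPM, and of mesothelial cells to at most 0.19 TPM with *Krt19* at 0. The part of other cells in the values below was not tested, and in RNA from bulk cells fewer cells of a type and less RNA per cell cannot be told apart.

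The class I chains were among the most abundant transcripts of pMacs. In TPM, which is a level per transcript length, *B2m* stood at 3271 ± 594 in WT pMacs (SD, n = 4), rank 24 of the 48795 gene identifiers. *H2-D1* followed at 2107 ± 160 (rank 37) and *H2-K1* at 1421 ± 146 (rank 60), and the ranges of these 3 genes over the WT libraries did not overlap. *Tapbp* (419 ± 135 TPM, rank 279), *Psmb10* (225 ± 78.3, rank 495), *Psmb8* (151 ± 57.0, rank 751), *Tap1* (121 ± 81.2, rank 920), *Nlrc5* (77.7 ± 37.3, rank 1476), *Psmb9* (71.9 ± 38.1, rank 1603) and *Tap2* (56.9 ± 18.4, rank 2038) came after them. From *Tapbp* down, each gene overlapped the next one in its range over the WT libraries. Within every WT library, however, *Tapbp* stood above *Psmb10*, *Psmb10* above *Psmb8* and *Tap1* above *Nlrc5*. The other neighbours in that order did not keep it in every WT library.

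All 10 genes had a higher mean in CD1d-KO than in WT pMacs. In edgeR, none passed a fold change above 1.5 with an adjusted p-value under 0.01, the thresholds that the study applied in DESeq2. The log2 fold changes lay between 0.20 and 0.65 with a median of 0.507, beside a median of 0.00467 over all tested genes. The quasi-likelihood test of edgeR, with the replicate number as a block and Benjamini-Hochberg adjustment over 13040 genes, called 0 of the 10 genes and 0.0383% of all tested genes. At an unadjusted p under 0.05, 8 of the 10 were higher and 0 lower, against 7.35% of all tested genes higher and 5.01% lower, and the exceptions were *H2-D1* and *B2m*. Without replicate 1, 7 of the 10 were higher and 0 lower, *H2-K1* no longer among them, against 5.55% and 3.68% of all tested genes, and the median log2 fold change was 0.377. Without the replicate block, 0 of the 10 reached an unadjusted p under 0.05, against 1.62% of all tested genes that were higher. DESeq2, the tool of the study, called 1 of the 10, *Tap1*, with the same covariates, against 0.795% of all genes to which it gave an adjusted p. Its adjusted p was under 0.05 for 6 of the 10, against 2.16% of these genes. These 10 genes moved together across the libraries, so their counts are not independent observations. By flow cytometry, the study found surface MHC-I comparable between WT and CD1d-KO pMacs. That is a measure of protein, while the values here are RNA.

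**Figure D1:**
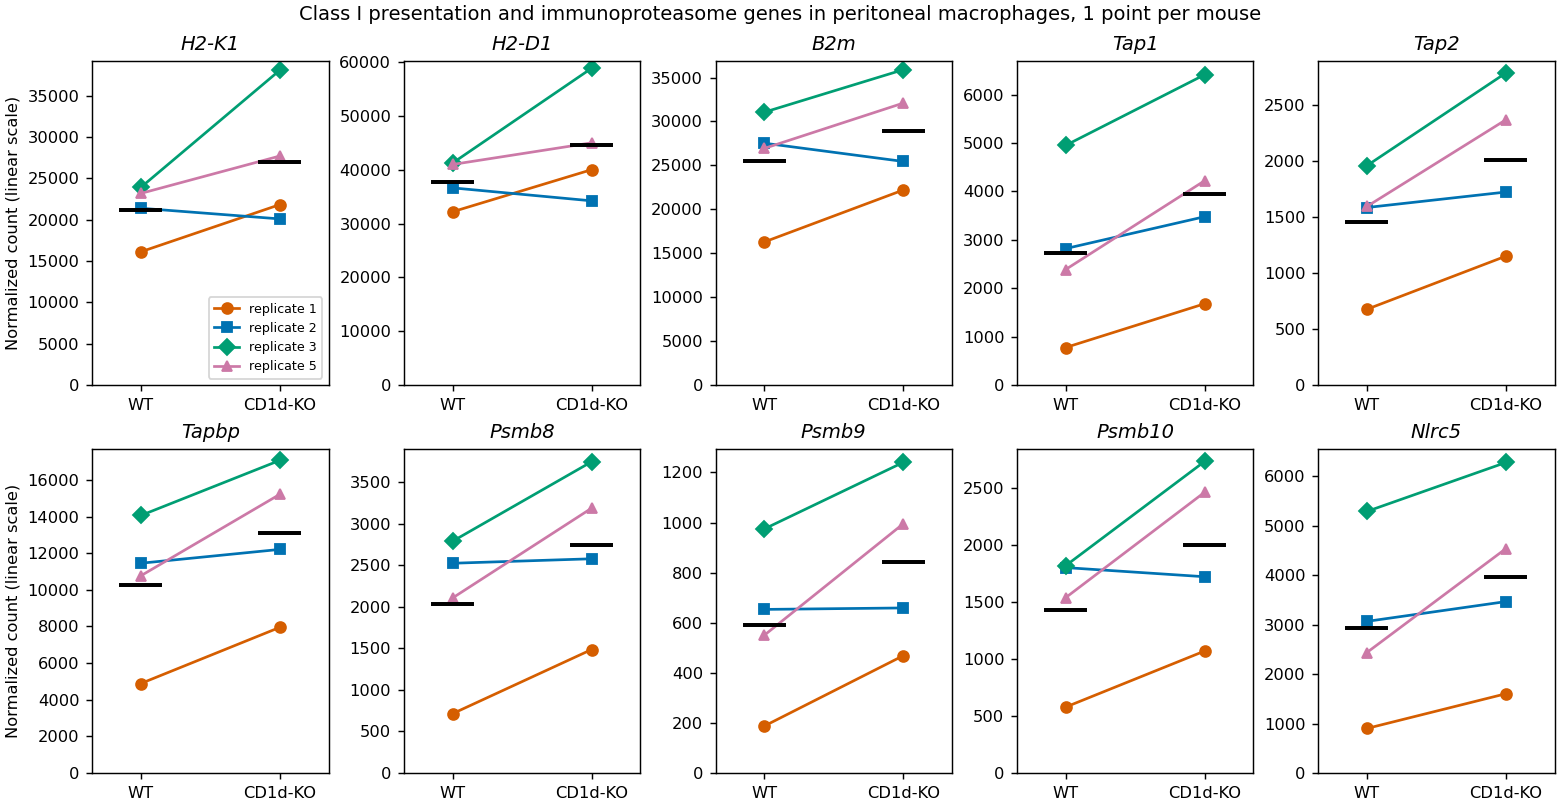
Normalized counts (linear scale) of the 10 genes in each library, with 1 point per mouse, lines joining the WT and CD1d-KO libraries of one replicate number and black bars at the group means. WT replicate 1 is the lowest and CD1d-KO replicate 3 the highest library in 10 of 10 genes, and the genotypes overlap in every gene.

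The heavy chains bind the peptide and are what the T cell receptor reads. *H2-K1* (ENSMUSG00000061232, GRCm38 chromosome 17, 33996017 to 34000347, minus strand) had 16098, 21370.1, 23891 and 23162 normalized counts in WT replicates 1, 2, 3 and 5. In CD1d-KO replicates 1, 2, 3 and 5 it had 21809.7, 20079, 38074 and 27688. The CD1d-KO library was higher in 3 of 4 pairs, with replicate 2 as the exception, and replicate 3 stood above all other libraries. The means were 21130.3 ± 3518 and 26913 ± 8122 (SD, n = 4 each), with a log2 fold change of 0.32 (SE 0.13, adjusted p = 0.359 from edgeR). It was 0.28 without replicate 1 and 0.20 without replicate 3.

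*H2-D1* (ENSMUSG00000073411, chromosome 17, 35262730 to 35267499, plus strand), the other classical heavy chain of these mice, had 32202, 36654, 41261 and 41006 normalized counts in the WT replicates and 40035, 34241, 58906 and 45033 in the CD1d-KO replicates, in the same order. It showed the order of *H2-K1*, with replicate 2 lower and the other 3 pairs higher in CD1d-KO. The means were 37781 ± 4278 and 44554 ± 10535 (log2 fold change 0.22, SE 0.112, adjusted p = 0.483 from edgeR). Leaving out replicate 1 gave a log2 fold change of 0.18, and leaving out replicate 3 gave 0.12. The heavy chains varied less among the WT mice than any of the other 8 genes, with a highest WT library 1.48 times the lowest for *H2-K1* and 1.28 times for *H2-D1*.

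*B2m* (ENSMUSG00000060802, chromosome 2, 122147686 to 122153083, plus strand) encodes the light chain that every class I heavy chain, CD1d included, needs to fold and leave the endoplasmic reticulum. Its normalized counts were 16273, 27530.05, 31055 and 26930.2 in the WT and 22193, 25447, 35897 and 32093 in the CD1d-KO replicates. The pair of replicate 2 again ran the other way, and the genotypes overlapped over most of their range. The means were 25447 ± 6381 and 28908 ± 6219.9, and the log2 fold change of 0.20 was the smallest of the 10 (SE 0.104, adjusted p = 0.487 from edgeR). It moved to 0.12 without replicate 1 and to 0.31 without replicate 2. The TPM of *H2-K1* and *H2-D1* together, divided by that of *B2m*, was 1.1 ± 0.19 in WT and 1.14 ± 0.141 in CD1d-KO pMacs (exact permutation test, two-sided, p = 0.743, n = 4 each).

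RSEM divides reads that match several genes, and part of the heavy chain sequence is shared with relatives. Of all stretches of 75 bases, the read length, in the GENCODE transcripts, 3.1% of those in *H2-K1* and 5.4% of those in *H2-D1* also occurred in another gene, against 17.9% in the non-classical *H2-Q6* and 17% in *H2-Q7*. For *Tapbp* the share was 1.1%, and for the other 7 genes it was 0. Summed into 1 feature, the classical and non-classical heavy chains had a log2 fold change of 0.305 (SE 0.12, adjusted p = 0.362 from edgeR; log2 fold change 0.269 without replicate 1), so that the division of reads inside the family does not enter it.

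The peptide transporter gene *Tap1* had the largest log2 fold change of the 10. *Tap1* (ENSMUSG00000037321, chromosome 17, 34187553 to 34197225, plus strand) encodes one chain of the TAP heterodimer. It had 772, 2818, 4953 and 2385 normalized counts in WT replicates 1, 2, 3 and 5 and 1678, 3478, 6415 and 4222 in the CD1d-KO replicates. All 4 pairs were higher in CD1d-KO, from 1.23-fold in replicate 2 to 2.17-fold in replicate 1, while the WT libraries alone spanned 6.42-fold. The means were 2732 ± 1723 and 3948 ± 1961, with a log2 fold change of 0.65 (SE 0.137, adjusted p = 0.122 from edgeR). Without replicate 1 the log2 fold change was 0.50 (adjusted p = 0.271 from edgeR). DESeq2 gave an adjusted p of 0.0012, and over all alternatives the adjusted p of *Tap1* ranged from 0.000377 to 0.997.

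*Tap2* (ENSMUSG00000024339, chromosome 17, 34203527 to 34216321, plus strand), the partner chain, had 676, 1586, 1961 and 1596 normalized counts in the WT and 1151, 1725, 2790.4 and 2371 in the CD1d-KO replicates. All 4 pairs were higher in CD1d-KO, and the spread among WT libraries, 2.9-fold, was narrower than that of *Tap1*. The means were 1455 ± 548 and 2009.5 ± 721 (log2 fold change 0.49, SE 0.104, adjusted p = 0.122 from edgeR; log2 fold change 0.40 without replicate 1). The ratio of *Tap1* to *Tap2* in TPM was 1.97 ± 0.811 in WT and 1.99 ± 0.438 in CD1d-KO pMacs (exact permutation test, two-sided, p = 0.83, n = 4 each).

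*Tapbp* (ENSMUSG00000024308, chromosome 17, 33915899 to 33929292, plus strand) encodes tapasin, which edits the peptides bound to class I. Its normalized counts were 4884, 11453, 14060.4 and 10767 in the WT and 7952, 12208, 17072 and 15216 in the CD1d-KO replicates. As for the TAP chains, all 4 pairs were higher in CD1d-KO and replicate 2 showed the smallest difference. The means were 10291 ± 3874 and 13112 ± 3981 (log2 fold change 0.39, SE 0.109, adjusted p = 0.201 from edgeR; log2 fold change 0.29 without replicate 1).

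**Figure D2:**
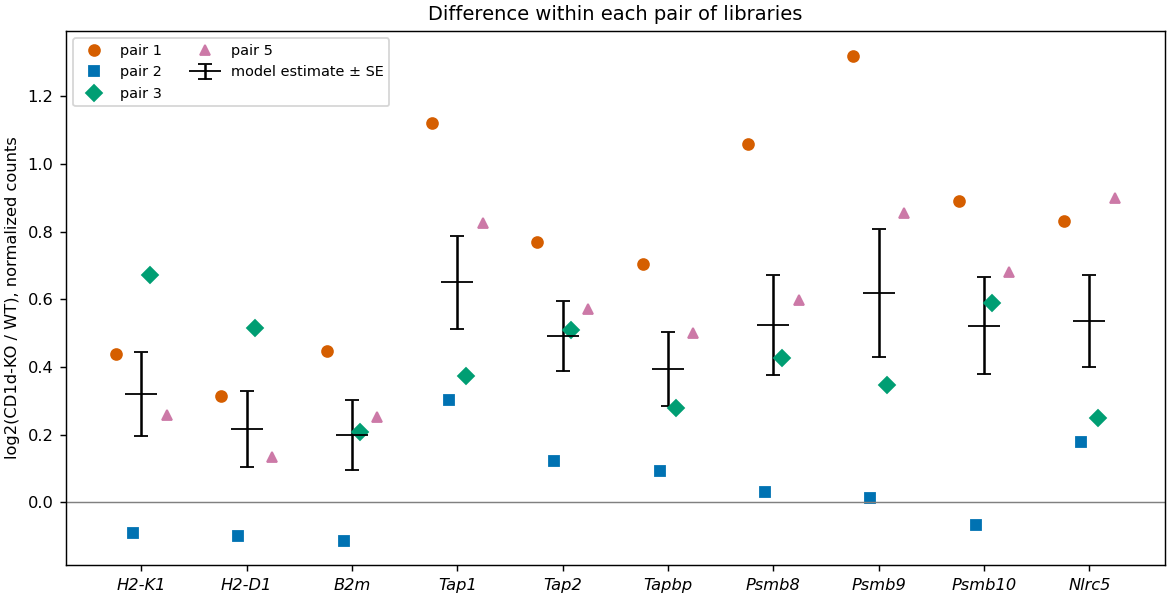
Difference between the CD1d-KO and the WT library of each replicate number (log2 of the ratio of normalized counts) for the 10 genes, with the estimate of the edgeR model and its standard error in black. The point of pair 2 is the lowest in 10 of 10 genes and below 0 in 4 of them, and those of the other 3 pairs are all above 0.

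The 3 immunoproteasome subunits gave differences of similar size. *Psmb8* (ENSMUSG00000024338, chromosome 17, 34197721 to 34201454, plus strand) encodes LMP7, the chymotrypsin-like subunit of the inducible particle. It had 713, 2524, 2789 and 2106 normalized counts in WT replicates 1, 2, 3 and 5 and 1485, 2578, 3745 and 3186 in the CD1d-KO replicates. CD1d-KO was higher in all 4 pairs, but in replicate 2 by 1.02-fold only. The means were 2033 ± 924 and 2749 ± 968, with a log2 fold change of 0.52 (SE 0.148, adjusted p = 0.209 from edgeR) that was 0.35 without replicate 1.

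*Psmb9* (ENSMUSG00000096727, chromosome 17, 34181987 to 34187764, minus strand) encodes LMP2 and lies head to head with *Tap1*. Its normalized counts were 187, 653, 974 and 549.7 in the WT and 468, 659, 1240.3 and 995 in the CD1d-KO replicates. All 4 pairs were higher in CD1d-KO, with 2.5-fold in replicate 1 and 1.01-fold in replicate 2 as the extremes. The means were 591 ± 324 and 841 ± 344 (log2 fold change 0.62, SE 0.189, adjusted p = 0.233 from edgeR). Without replicate 1 the log2 fold change was 0.41. *Psmb9* and *Tap1* overlap at their 5' ends on opposite strands, and the sources used here do not say whether reads were counted by strand, so reads from the overlap cannot be told apart.

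*Psmb10* (ENSMUSG00000031897, chromosome 8, 105935735 to 105938444, minus strand) encodes MECL1 and lies outside the MHC. It had 577, 1800.5, 1817 and 1536 normalized counts in the WT and 1069, 1720.4, 2731 and 2461 in the CD1d-KO replicates. The difference ran upward in 3 of 4 pairs and downward in replicate 2. The means were 1433 ± 585 and 1995 ± 751 (log2 fold change 0.52, SE 0.143, adjusted p = 0.2 from edgeR; log2 fold change 0.40 without replicate 1).

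*Nlrc5* (ENSMUSG00000074151, chromosome 8, 94434356 to 94527272, plus strand), the transactivator of class I genes, had 900.3, 3067, 5292 and 2437 normalized counts in the WT and 1603, 3468, 6283 and 4539.9 in the CD1d-KO replicates. It followed the order of *Tap1*, with all 4 pairs higher in CD1d-KO and WT replicate 1 far below the rest. The means were 2924 ± 1822 and 3974 ± 1960.4 (log2 fold change 0.54, SE 0.136, adjusted p = 0.169 from edgeR; log2 fold change 0.44 without replicate 1). Over the fit without replicate 1, the adjusted p of the 10 genes lay between 0.271 and 0.816 in edgeR.

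The spread between mice of one genotype was larger than the difference between genotypes. WT replicate 1 was the lowest of the 8 libraries for 10 of 10 genes and CD1d-KO replicate 3 the highest for 10 of 10, and the genotypes did not overlap for 0 of the 10, against 1.04% of all tested genes that were higher in CD1d-KO with no overlap. The highest WT library exceeded the lowest 5.88-fold for *Nlrc5*, 5.21-fold for *Psmb9*, 3.91-fold for *Psmb8*, 3.15-fold for *Psmb10* and 1.91-fold for *B2m*. Within pairs, 6 of the 10 genes were higher in CD1d-KO in all 4 pairs, against 10.6% of all tested genes, and the other 4 (*H2-K1*, *H2-D1*, *B2m* and *Psmb10*) were higher in 3. The median difference over the 10 genes (log2) was 0.8 in pair 1, 0.0216 in pair 2, 0.399 in pair 3 and 0.585 in pair 5, while the median over all tested genes stayed between -0.00981 and 0.0146. The pair with the largest median was the one whose CD1d-KO library carried *Cd1d1* at the WT level, while pair 3 gave the largest difference for *H2-K1* and *H2-D1* and pair 5 for *Nlrc5*.

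The places of the inducible subunits can also be held by constitutive ones, so both kinds were set against each other. The constitutive *Psmb5*, *Psmb6* and *Psmb7* had log2 fold changes of -0.20, -0.10 and -0.25 (adjusted p = 0.235, 0.612 and 0.233 from edgeR), and 2 of the 3, *Psmb5* and *Psmb7*, were lower at an unadjusted p under 0.05, which 0 of the 3 reached without replicate 1. In TPM, *Psmb8* stood at 0.329, 0.864, 1.28 and 0.921 times *Psmb5* in WT replicates 1, 2, 3 and 5, and at 0.778, 0.939, 1.95 and 1.54 times in the CD1d-KO replicates. The means of this ratio were 0.848 ± 0.392 and 1.3 ± 0.542 (SD, n = 4 each), and its log2 difference was 0.678. *Psmb9* to *Psmb6* gave 0.455 ± 0.244 in WT against 0.703 ± 0.299 in CD1d-KO mice (log2 difference 0.741). *Psmb10* to *Psmb7* gave 2.35 ± 0.952 and 3.86 ± 1.63 (log2 difference 0.738). Each of the 3 ratios was higher in CD1d-KO in 4 of 4 pairs, and the genotypes overlapped in all of them. The exact permutation tests of 4 against 4 libraries (two-sided) gave p = 0.229, 0.257 and 0.257, and 0.429 for each after Benjamini-Hochberg adjustment over the 5 ratios tested. In an exact permutation test by sign flips over the 4 pairs, each of these 3 ratios reached the smallest p that 4 pairs allow, which lies above 0.05. Without replicate 1 the log2 differences of the 3 ratios were 0.49, 0.483 and 0.58.

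**Figure D3:**
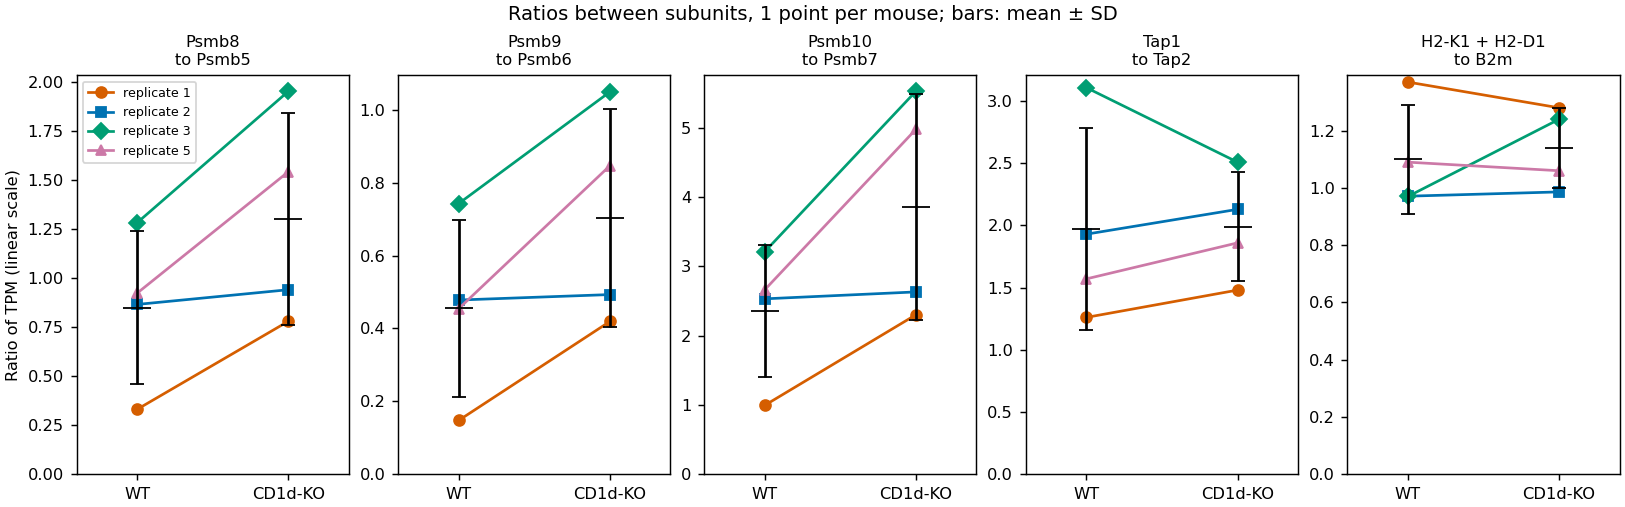
Ratios of TPM (linear scale) of each inducible to its constitutive proteasome subunit, of *Tap1* to *Tap2*, and of the classical heavy chains to *B2m*, with 1 point per mouse, lines joining the libraries of one replicate number and black bars for the mean ± SD of 4 mice. The 3 proteasome ratios are higher in CD1d-KO in every pair, with pair 2 nearly level, and the last 2 ratios have means close to each other.

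Of the other genes of the pathway, the non-classical heavy chains gave log2 fold changes of a similar size. Of 18 listed, 16 are in the annotation and 12 were tested, and 8 of the 12 were higher and 0 lower at an unadjusted p under 0.05, with a median log2 fold change of 0.558. Without replicate 1 the count was 7 and the median 0.44. edgeR called 0 of them and DESeq2 called 1, *H2-Q4* (adjusted p = 0.00238 from DESeq2, and 0.000711 to 0.997 over all alternatives). *H2-Q4* (log2 fold change 0.60, adjusted p = 0.13), *H2-T22* (0.58, adjusted p = 0.144) and *H2-Q7* (0.58, adjusted p = 0.212 from edgeR) had the smallest p-values. *H2-T23* encodes Qa-1, a ligand of the NK cell receptor NKG2A, and had a log2 fold change of 0.47 (adjusted p = 0.212 from edgeR). *H2-T23* had 1472, 4417, 4429 and 3582 normalized counts in WT and 2786, 4459, 5949 and 5082 in CD1d-KO replicates 1, 2, 3 and 5, and was named after its values were seen.

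The chaperones and trimming enzymes around peptide loading mostly gave values near 0. Of 14 tested, 2 were higher and 0 lower at an unadjusted p under 0.05, with a median log2 fold change of -0.0175, and the count was 1 without replicate 1 and 1 without replicate 5. The 2 were *Tapbpl* (log2 fold change 0.39, adjusted p = 0.229), which encodes the tapasin relative TAPBPR, and *Erap1* (0.23, adjusted p = 0.376 from edgeR), the aminopeptidase that trims peptides in the endoplasmic reticulum.

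The rest of the proteasome gave values near 0 or below it. Of the 16 shared 20S subunits and assembly factors 0 were higher and 1, *Psma1*, lower at an unadjusted p under 0.05 (log2 fold change -0.15, adjusted p = 0.379 from edgeR), and without replicate 1 that count was 0. The 18 subunits of the 19S cap all had negative log2 fold changes with a median of -0.136, and 3 of them (*Psmd13*, *Psmc3* and *Psmd14*) were lower at an unadjusted p under 0.05, against 0 without replicate 1. The interferon-inducible activator subunits *Psme1* (log2 fold change 0.26, adjusted p = 0.247) and *Psme2* (0.42, adjusted p = 0.255 from edgeR) were higher at an unadjusted p under 0.05, and *Psme3* and *Psme4* were not. Without replicate 1, and likewise without replicate 5, 0 of these 4 activators reached that level.

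**Figure D4:**
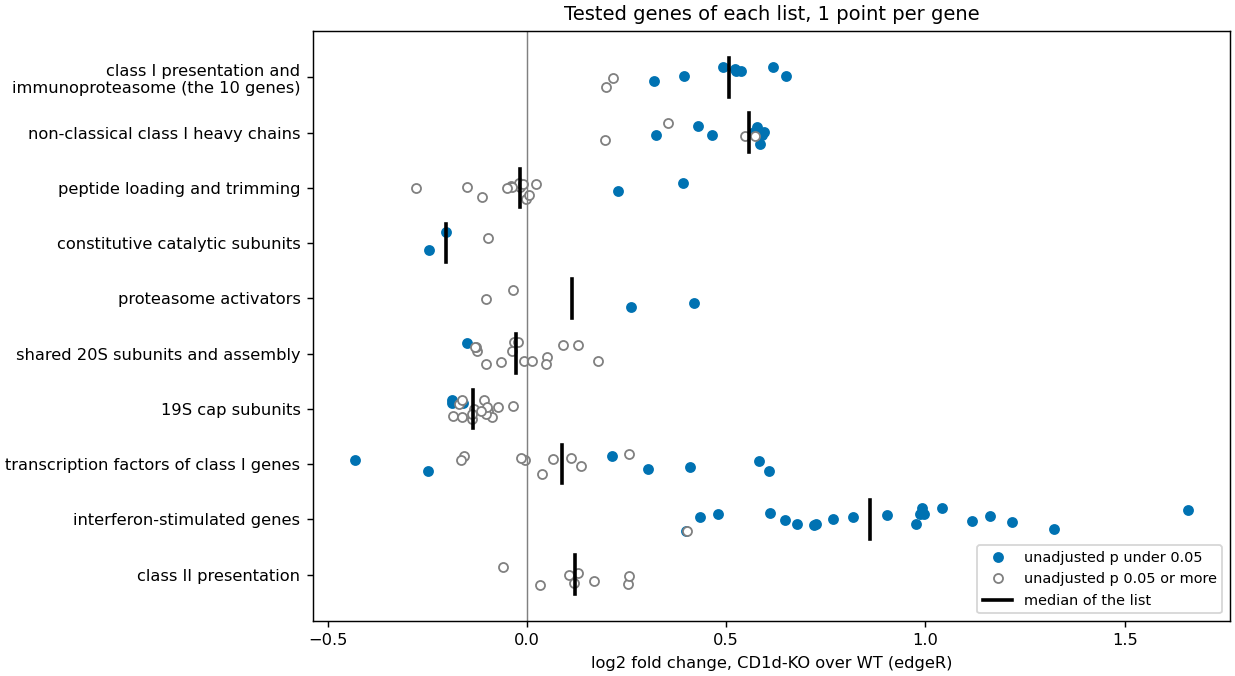
Log2 fold change (CD1d-KO over WT, edgeR) of every tested gene of the 10 genes and of 9 related lists, with 1 point per gene, filled where the unadjusted p is under 0.05, and a bar at each median. The medians are 0.507 for the 10 genes, 0.558 for the non-classical heavy chains, -0.203 for the constitutive catalytic subunits, -0.136 for the 19S cap and 0.861 for interferon-stimulated genes.

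Among 16 transcription factors of class I genes, 5 were higher and 2 lower at an unadjusted p under 0.05, with a median log2 fold change of 0.088. The count of higher factors was 3 without replicate 1 and 2 without replicate 5. *Irf8* had the smallest p and ran against the 10 genes, with 2213, 1523, 1690.3 and 1721 normalized counts in WT and 1809, 1152, 1035 and 1363 in CD1d-KO replicates 1, 2, 3 and 5. It was lower in CD1d-KO in all 4 pairs (log2 fold change -0.43, SE 0.0837, adjusted p = 0.101 from edgeR). *Stat2* (log2 fold change 0.58, adjusted p = 0.232), a part of the ISGF3 complex that answers type I interferon, and *Atf1* (0.21, adjusted p = 0.212 from edgeR) were higher in all 4 pairs.

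In their summed level, interferon-stimulated genes had the same lowest and highest library as the 10 genes. Gene by gene this did not always hold, since *Ifit1*, *Cmpk2* and *Ifih1* were highest in WT replicate 3. They were named after their values were seen. In both sets of genes the median difference within pairs was largest in pair 1 and next largest in pair 5. Pairs 2 and 3 were nearly level for the interferon-stimulated genes, while pair 3 stood above pair 2 for the 10 genes. The median log2 difference of the interferon-stimulated genes was 1.79 in pair 1, 0.197 in pair 2, 0.191 in pair 3 and 1.26 in pair 5. For the 10 genes it was 0.8, 0.0216, 0.399 and 0.585. The summed level of the interferon-stimulated genes was 732, 4991, 9875 and 3120 TPM in WT replicates 1, 2, 3 and 5 and 2258, 6131, 10740 and 8034 TPM in the CD1d-KO replicates, so that WT replicate 1 was again the lowest and CD1d-KO replicate 3 the highest library. Of the 22 genes, 21 were higher and 0 lower at an unadjusted p under 0.05, with a median log2 fold change of 0.861, and edgeR and DESeq2 each called 0. The count was 14 without replicate 1, with a median of 0.582, and 6 without replicate 5. *Cxcl10* (log2 fold change 1.66, adjusted p = 0.181), a chemokine, *Oasl1* (1.04, adjusted p = 0.16) and *Irf7* (0.90, adjusted p = 0.15 from edgeR), the factor that amplifies type I interferon, had the smallest p-values. Whether the level of these genes accounts for that of the class I genes was not tested.

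The genes whose level followed the mean profile of the 10 genes most closely were found by the Pearson correlation of log2 CPM over the 8 libraries, which share 4 replicate numbers and were scaled together. They were *Gbp3* (r = 0.997), *Tapbpl* (0.995), *Xkr8* (0.994), *Gbp2* (0.992), *Cfb* (0.991) and *Dbnl* (0.989). Over the 6 libraries without replicate 1, a check added after the data were seen, the correlations of these genes were 0.963 to 0.993. *Gbp2* and *Gbp3* encode interferon-inducible GTPases that act on membranes of intracellular pathogens, and *Cfb* encodes complement factor B.

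The other genes between *H2-K1* and *H2-D1* on chromosome 17 mostly gave values nearer to 0. *H2-K1* and *H2-D1* bound an interval of 1.27 Mb of the MHC (chr17:33996017-35262730 of GRCm38), in which 70 genes were tested, 6 of them among the 10. The other 64 had a median log2 fold change of 0.0315, and 4 of them (*C2*, *Cfb*, *Tnxb* and *Ehmt2*) were higher and 0 lower at an unadjusted p under 0.05. Of all tested genes, 7.35% were higher and 5.01% lower at that level. Without replicate 1, added after the data were seen, 62 genes of the interval outside the 10 were tested, with a median of 0.00511. At that level 2 of them were higher and 1 lower, against 5.55% and 3.68% of all tested genes. The complement gene *C2* had the largest log2 fold change of the 4 genes named here, 1.73 (adjusted p = 0.228 from edgeR; log2 fold change 1.61 without replicate 1). The non-classical *H2-Q4*, *H2-Q7* and *H2-T22* lie on chromosome 17 outside this interval, with log2 fold changes of 0.60, 0.58 and 0.58. *B2m*, *Psmb10* and *Nlrc5* lie on other chromosomes, with values as given above.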

How the data were processed

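RNA libraries of pMacs (4 WT, 4 CD1d-KO, selected for polyA) were read from a single end for 75 bp. Per the methods and the labels, the authors used Cutadapt for trimming, STAR (version 2.5.2a) for alignment to GRCm38 and RSEM (version 1.3.0) for quantification. The deposited files hold the expected counts that the authors obtained from RSEM, of which 27.9% to 29.9% were not whole in a library, and TPM values, which the authors' run of RSEM scaled to a common total in each library. The strand setting was not given in the sources used here.

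Gene names came from GENCODE M21, which held 99.3% of the identifiers and 99.5% of the counts. Expected counts were rounded. Genes that passed filterByExpr were normalized by TMM and tested with the quasi-likelihood test of edgeR (version 4.0.16; R 4.3.3) with replicate number and genotype as terms, the covariates of the study. The study itself used DESeq2 with these covariates. Benjamini-Hochberg adjustment ran over all tested genes, and a call needed a fold change above 1.5 with an adjusted p under 0.01. DESeq2 (version 1.42.0), limma-trend (version 3.58.1) on log2(TPM + 1), other normalizations and filters, and fits without the block or without each replicate number were the alternatives. Ratios of TPM were compared by two-sided exact permutation tests, in which 4 against 4 libraries cannot go below 0.0286. The scripts were tested on simulated data.

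Each library is 1 mouse. Of the 28 pairs of libraries, the most similar had a chi-square of 14.2 per degree of freedom, so each library was counted as a separate sample. Libraries with the same replicate number deviated together from their group means (correlations of 0.487, 0.387, 0.505 and 0.207 for numbers 1, 2, 3 and 5), so the numbers were taken to pair the libraries, although for number 5 a library of another number correlated slightly more highly (0.22). The labels do not say what the numbers share.

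The 10 genes, the related lists and the markers were chosen with earlier results of these data known. Named genes were the 10 genes, the constitutive catalytic subunits, *Cd1d1*, up to 3 genes of each pathway list with the smallest unadjusted p, and the 6 genes most like the mean profile of the 10. Promoter windows are RefSeq entries on GRCm38.p6.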

Additional observations from a re-analysis of the deposited data

Results flagged for a closer look

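The normalized count of *Cd1d1* in the library labelled CD1d-KO replicate 1 was 60.1, while the other 3 CD1d-KO libraries had 0 to 1.13. Its distance from the others exceeded Dixon's limit for 4 samples. It was the 1 value so marked in 32 groups examined, which held the 10 genes, *Cd1d1* and the 5 ratios in each genotype, and chance marks about 1 group in 20. None of the 10 class I and immunoproteasome genes and none of the 5 ratios had such a value.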

How the results depend on the processing

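Under the 12 alternatives, 120 of 120 fold changes of the 10 genes were higher in CD1d-KO (log2 0.116 to 0.821), and 117 stayed on the same side of the thresholds. The other 3 passed them: *Tap1* and *Psmb9* with all 25377 genes tested and no filter on counts, where 2 of the 10 and 236 genes in all were called, and *Tap1* in DESeq2, where 1 of the 10 and 104 genes in all were called. The 5 genes called by edgeR became 3 without the replicate block, 3 in limma-trend, 53 at an adjusted p under 0.05 with no fold threshold, and 3 to 22 when a replicate number was left out (22 without replicate 2, 3 without replicate 3 and 3 without replicate 5). The 8 genes with an unadjusted p under 0.05 became 0 without the replicate block, and 0 without the replicate block when CD1d-KO replicate 1 was also left out. Leaving out a replicate number gave 6 to 10. The ratio of *H2-K1* plus *H2-D1* to *B2m* turned to -0.043 (log2 difference) without replicate 3, in a range of -0.043 to 0.112 over the fits that left out a replicate number. The causes of these shifts were not tested. The fits that left out a replicate number also held fewer libraries. The block changed no call among the 10 genes. A fold change under 1.5 could not be called at the thresholds used.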

Other observations

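Class II presentation, which shows peptides of ingested proteins to CD4 T cells, was measured in the same libraries. Of its 8 genes, 0 reached an unadjusted p under 0.05 in either direction, with a median log2 fold change of 0.122 and summed levels of 2395 to 4073 TPM in WT and 1869 to 5433 TPM in CD1d-KO libraries. The median was 0.0311 without replicate 1, 0.336 without replicate 2, 0.079 without replicate 3 and 0.0627 without replicate 5, and 6 of the 8 were higher at that level without replicate 2. *H2-DMa*, which helps load class II, had a log2 fold change of 0.25 (adjusted p = 0.633 from edgeR). The B cell markers in these libraries moved in the same direction within pairs 1, 2 and 5. Their median log2 difference was 0.416 in pair 1, -0.894 in pair 2, -0.0751 in pair 3 and 0.685 in pair 5, beside 0.424, -0.581, 0.208 and 0.255 for class II. Their part in the class II values was not tested.

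Of the 10 markers of large peritoneal macrophages, 4 were higher and 0 lower in CD1d-KO at an unadjusted p under 0.05 (*Cxcl13*, *Timd4*, *Selp* and *F5*), 3 without replicate 1 and 2 without replicate 3. *Cxcl13*, a chemokine that attracts B cells, had 5549, 6736, 15190 and 8017 normalized counts in WT and 14862, 9347, 18476 and 15374 in CD1d-KO replicates 1, 2, 3 and 5 (log2 fold change 0.78, adjusted p = 0.144 from edgeR). *Gata6*, the factor that maintains these cells, had a log2 fold change of -0.09 (adjusted p = 0.879 from edgeR). These markers were named after their values were seen.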
